A study of Mus musculus with 4 samples.

Results

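The genes described here are the matrix metalloproteinases (Mmp), the ADAM and ADAMTS proteases, the tissue inhibitors of metalloproteinases (Timp) and 3 further genes of pericellular proteolysis, Fap, Reck and Bsg. They were taken by symbol from the deposited gene table, which held 82 of them among 23361 genes, namely 23 Mmp, 33 Adam, 19 Adamts and 4 Timp genes plus the 3 single genes. No fragment was counted in any library for 25 of the 82, among them 14 Adam genes, many of them known from testis, as well as Timp4 and 6 Mmp genes. A further 18 were counted but stayed below 1 FPKM (fragments per kilobase of transcript, relative to sequencing depth) in every library. The other 39 reached 1 FPKM in at least 1 library and are called expressed. The nearest genes on either side of that limit were Adamts15, whose highest level was 0.906 FPKM, and Mmp17, whose highest was 1.04 FPKM.

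All 4 libraries came from cultured mammary tumour cells of the Chaos3 mouse on the strain C3HeB/FeJ. Chaos3 is a mutation in Mcm4, part of the helicase that unwinds DNA for replication, and both groups share it. The High Arid1a group held 1 library each of 2 clones, AB-C1 and AB-C2, made by giving the cells an Arid1a expression vector in a lentivirus. The Low Arid1a group held 2 libraries of the tumour line they were made from. Each library labelled High is thus a single clone, and the table does not say which of its libraries is which clone. Vector, virus and cloning all go with the High label, so their effects cannot be told apart. Which promoter drives the vector is not stated in those sources. The numbers 1 and 2 below only name libraries within a label. Library totals ran from 13889858 to 28110812 fragments, of which the 82 genes took 0.338% to 1.19%.

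Arid1a, a subunit of the BAF chromatin remodelling complex, was counted at 6.16 and 7.22 FPKM in the libraries labelled High, against 10.2 and 11.7 FPKM in those labelled Low. The counted gene therefore ran against the label (log2 fold change -0.71, adjusted p = 0.165 by edgeR), and whether vector transcripts were counted is not known. For that reason each direction below refers to the label only. Epithelial markers were present in all libraries, with the luminal Krt8 from 138 to 541 FPKM and the basal Krt14 from 418 to 1792 FPKM. Of the 5 luminal markers edgeR called 0, and DESeq2 called Cdh1 higher (adjusted p = 6.51e-04). Cdh1 was at 61.5 and 90.6 FPKM in the libraries labelled High, against 30.8 and 34.4 FPKM in those labelled Low. Epcam was at 60.5 and 128 FPKM, against 49.5 and 42.0 FPKM, while Krt8, Krt18 and Krt19 overlapped between the groups. The basal markers Krt5 and Myh11 did not exceed 0.505 FPKM. Basal Trp63 was at 1.42 and 5.49 FPKM in the libraries labelled High, against 0.614 and 0.590 FPKM in those labelled Low. Of the 5 basal or myoepithelial markers edgeR called only Acta2, lower in the libraries labelled High. DESeq2 called 2 higher, Krt14 (adjusted p = 0.0208) and Trp63 (adjusted p = 9.01e-04), and 1 lower, Acta2. The leukocyte markers Ptprc and Itgam did not exceed 0.0584 FPKM and Cd3e was at 0. Of the same list, Csf1r was at 5.58 and 7.37 FPKM in the libraries labelled High, against 2.35 and 2.34 FPKM in those labelled Low (adjusted p = 0.0579 by edgeR, 0.00153 by DESeq2), and Cd68 reached 1.64 FPKM. All 4 endothelial and all 3 adipocyte markers stayed below 1 FPKM. Fibroblast markers were found in both groups. Of the 5 tested edgeR called 0, while DESeq2 called Col1a1 lower (58.6-fold) and Dcn higher in the libraries labelled High. Their summed level over 7 genes was 279 and 38.6 FPKM in the libraries labelled High, against 1076 and 963 FPKM in those labelled Low, with Lum at 0 and Thy1 below 1 FPKM throughout. In such bulk libraries, fewer cells of a type and less RNA per cell cannot be told apart.

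Metalloproteinases are zinc-dependent enzymes made as inactive precursors. Secreted members cut collagens, laminins and other matrix proteins, the membrane-type members do so at the cell surface, and ADAMs mostly cut other membrane proteins and so release growth factors and adhesion molecules. ADAMTS enzymes are secreted, and process procollagen or cut large proteoglycans. TIMPs bind the active site of these enzymes, and in the mammary gland the balance of proteases and inhibitors shapes branching, involution and tumour invasion.

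A block of 10 Mmp genes lies side by side on chromosome 9 (7272514 to 7699585, mm10, a span of 427 kb). In order along the chromosome these are Mmp13, Mmp12, Mmp1b, Mmp3, Mmp1a, Mmp10, Mmp8, Mmp27, Mmp20 and Mmp7. Their promoters are shown because the block holds Mmp10 and Mmp13, which fell in the libraries labelled High, and because promoters of this block are the textbook example of regulation through AP-1. The letters searched were TGANTCA, on both strands, in the RefSeq windows that run from 250 bases before to 50 after each transcript start (GRCm38.p6). Such windows existed for 50 of the 82 genes, 55 windows in all. The 3 windows below give Mmp13 (chr9:7272264-7272563), Mmp3 (chr9:7445572-7445871) and Mmp10 (chr9:7502092-7502391), all on the plus strand, 5′ to 3′, with the AP-1 letters in capitals.
Mmp13: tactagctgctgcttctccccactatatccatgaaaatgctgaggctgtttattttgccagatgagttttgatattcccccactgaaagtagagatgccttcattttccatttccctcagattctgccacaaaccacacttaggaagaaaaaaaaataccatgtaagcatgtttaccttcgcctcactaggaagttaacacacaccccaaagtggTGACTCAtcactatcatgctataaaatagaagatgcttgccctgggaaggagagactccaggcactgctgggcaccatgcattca
Mmp3: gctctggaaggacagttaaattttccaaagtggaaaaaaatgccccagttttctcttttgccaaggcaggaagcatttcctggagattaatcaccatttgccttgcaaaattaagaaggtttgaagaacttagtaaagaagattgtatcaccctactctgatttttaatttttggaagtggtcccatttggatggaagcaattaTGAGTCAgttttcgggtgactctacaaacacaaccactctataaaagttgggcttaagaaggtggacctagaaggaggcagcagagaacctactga
Mmp10: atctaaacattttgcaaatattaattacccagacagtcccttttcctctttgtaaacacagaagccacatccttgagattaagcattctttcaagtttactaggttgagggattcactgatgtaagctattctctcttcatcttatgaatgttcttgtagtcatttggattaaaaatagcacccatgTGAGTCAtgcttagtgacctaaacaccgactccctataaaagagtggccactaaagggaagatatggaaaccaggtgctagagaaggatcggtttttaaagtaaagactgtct

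The capitals begin 35 bases before the start in Mmp13, 46 in Mmp3 and 63 in Mmp10, so that all 3 lie in promoter sequence upstream of the first exon. The 5 stretches of 41 bases that follow are centred on the same letters in the other genes of the block that hold them. That of Mmp12 (chr9:7347313-7347353, plus strand) belongs to the second of its 2 annotated starts. The others are Mmp1b (chr9:7388096-7388136, minus strand), Mmp1a (chr9:7464051-7464091), Mmp20 (chr9:7628119-7628159) and Mmp7 (chr9:7692010-7692050), the last 3 on the plus strand.
Mmp12: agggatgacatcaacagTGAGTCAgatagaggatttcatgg
Mmp1b: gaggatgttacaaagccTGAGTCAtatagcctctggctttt
Mmp1a: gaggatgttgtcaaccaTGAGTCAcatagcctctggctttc
Mmp20: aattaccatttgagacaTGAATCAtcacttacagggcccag
Mmp7: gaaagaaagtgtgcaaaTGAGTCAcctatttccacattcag

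In all, 8 of the 10 genes of the block had the AP-1 letters in a window, against 5 of the other 40 genes with a window. Counted by window, 8 of the 12 windows of the block and 23.6% of those of the 82 genes held them, against 7.81% of all 32851 windows of the genome. The stretches of Mmp1a and Mmp1b are nearly alike, so the matches in the block need not be independent. Of the genes that edgeR called lower, given below, Mmp10 and Mmp13 had the letters. The windows of Adamts2 and Adamts14 did not have them, and Mmp9, Adamts4 and Fap had no window. Conversely, Mmp1a, Mmp20 and Mmp7 had the letters but no fragments in any library. The core of the Ets motif, GGAA, was also searched and stood in 96.0% of all windows and 89.1% of those of the 82 genes, so that nearly every window held it. A match describes the letters only.

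The 3 Timp genes, Bsg and Mmp14 were the 5 highest in every library. The lowest of their values was 111 FPKM (Mmp14 in Low library 2), and the highest of any other gene was 69.3 FPKM (Adam9 in High library 1). Mmp14 supplied most of the summed Mmp level, 78.4% and 76.7% of it in the libraries labelled High and 65.9% and 64.9% in those labelled Low. The ADAM level came mainly from Adam10 and Adam9. ADAMTS levels were lower, and only Adamts2 passed 10 FPKM in every library.

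**Figure D1:**
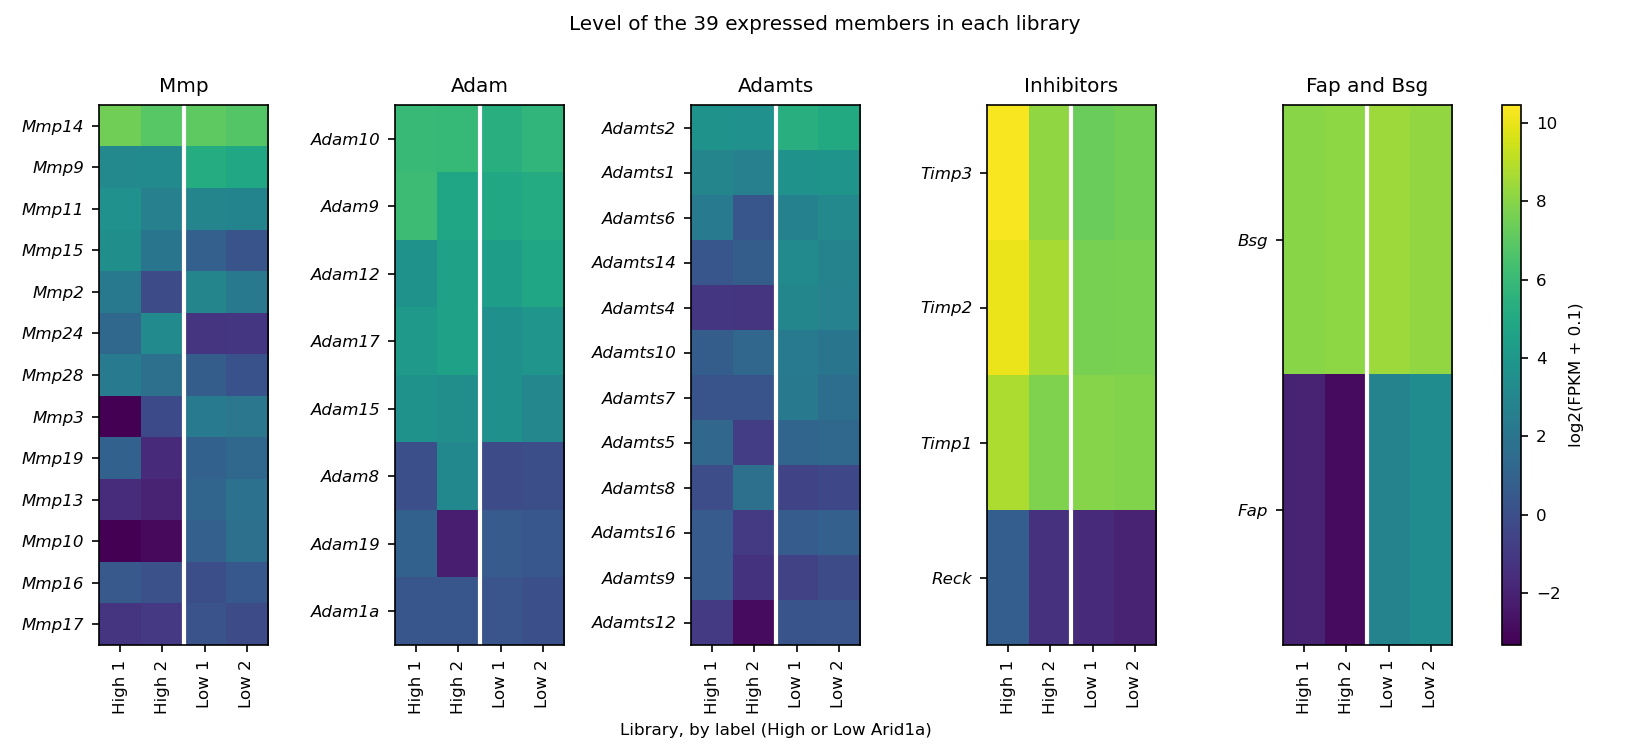
Level of each of the 39 expressed genes as log2(FPKM + 0.1), 1 column per library and 1 panel per family, with the 2 libraries labelled High left of the white line and the 2 labelled Low right of it. Timp3 is brightest in High library 1 (1258 FPKM), and Mmp10, Fap and Adamts4 are dark in both libraries labelled High.

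Fragment counts were tested across all 12987 genes that passed a filter on low counts (edgeR quasi-likelihood test, Benjamini-Hochberg adjustment, call at adjusted p under 0.05). Of the 82 genes, 45 passed that filter, the 39 expressed ones and 6 below 1 FPKM (Adam5, Adam11, Adam22, Adamts3, Adamts15 and Adamts17). Of these 45, 7 fell in the libraries labelled High, 0 rose and 38 were not called. That is 15.6% of the tested members called, against 2.47% of all genes tested. For the falls alone the background was 1.33%, and for rises it was 1.14%. The 7 were Mmp9, Mmp10 and Mmp13, Adamts2, Adamts4 and Adamts14, and Fap. At an unadjusted p under 0.05 there were 17 members, 10 lower and 7 higher, 37.8% of those tested against 18.1% of all genes. DESeq2 called 15, of which 11 were lower and 4 higher, 33.3% against a background of 8.75% (4.04% for lower and 4.7% for higher). The 4 higher ones were Mmp15, Mmp24, Mmp28 and Timp2.

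The median log2 fold change over the 45 was 0.10, beside 0.03 over all genes. By family it was -1.01 for Mmp, -0.998 for Adamts, 0.61 for Adam and 1.86 for Timp genes. FPKM values of the groups did not overlap for 27 of the 39 expressed members, 69.2%, against 50.8% of all genes at 1 FPKM or more. Of the 27, 16 were lower and 11 higher in the libraries labelled High, with 25.4% as the background in each direction. All 7 calls were lost when either library labelled Low was left out, when edgeR called 0 of all genes. With Low library 1 left out 970 genes and 12 members, and with Low library 2 left out 800 genes and 11 members, had an unadjusted p under 0.05. Without High library 1 there were 28 members called (60.9% of those tested, against 16.3% of all genes) and without High library 2 there were 21 (44.7%, against 18.6%), the 7 among them each time. In those fits the High label has 1 library, which is assumed to vary like the Low pair. Typical variation beyond counting noise (edgeR's biological coefficient of variation) came to 42.8% for the High pair and 17.3% for the Low pair. The labels do not say that the Low libraries were separate cultures, so the p-values measure the spread between these 4 libraries only, and that spread may be technical.

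**Figure D2:**
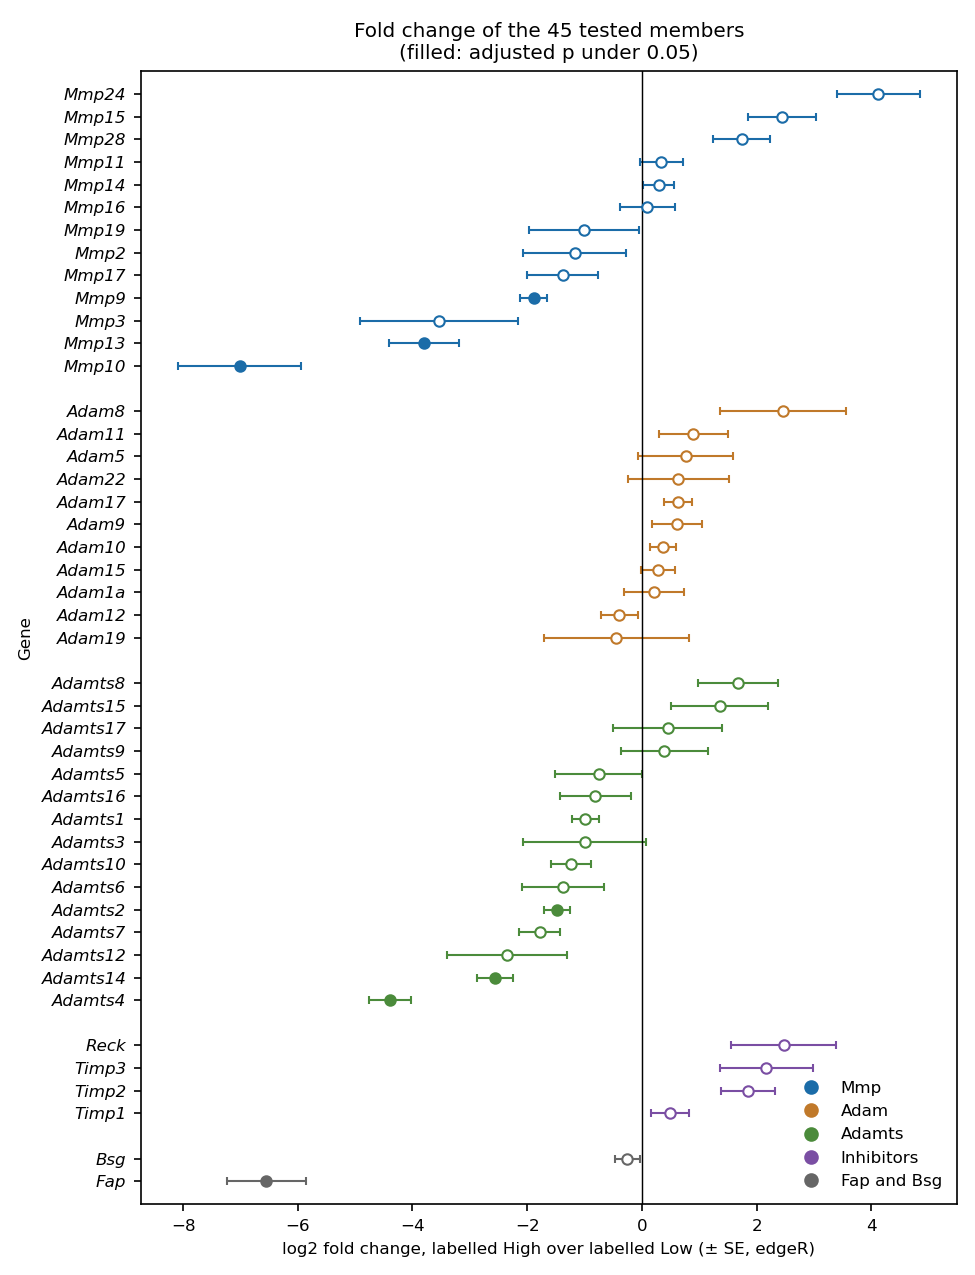
Log2 fold change, labelled High over labelled Low, with its SE from edgeR for the 45 tested genes, by family; filled points passed adjusted p under 0.05. All 7 filled points lie left of 0, from Mmp9, Adamts2 and Adamts14 to Mmp10 at -7.01, while the 4 inhibitors lie right of 0 with open points.

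Among the Mmp genes, 1 secreted gelatinase and 2 genes of the chromosome 9 block fell. Mmp9, gelatinase B, which cuts denatured collagen and basement membrane collagen, was at 8.70 and 9.17 FPKM in the libraries labelled High, against 36.9 and 29.7 FPKM in those labelled Low. The libraries of each label lay close together and the groups were far apart, a fall of 3.69-fold (log2 fold change -1.89 ± 0.24 SE, adjusted p = 0.0104 by edgeR). Mmp13, collagenase-3, which cuts fibrillar collagen, was at 0.233 and 0.162 FPKM in the libraries labelled High, against 2.15 and 3.39 FPKM in those labelled Low, a fall of 13.9-fold (adjusted p = 0.0256 by edgeR). The fragments behind it were 10 and 10 in the libraries labelled High, and 73 and 231 in those labelled Low. Mmp10, stromelysin-2, had 0 and 1 fragments in the libraries labelled High, against 36 and 135 in those labelled Low, or 1.74 and 3.24 FPKM. Over the summed fragments the ratio was 174 (95% interval 30.8 to 6915, counting error only), and the gene was called with adjusted p = 0.0217. Neither Mmp10 nor Mmp13 passed with limma on log2(FPKM + 1), where adjusted p was 0.0539 and 0.0532 (range over all alternatives 1.16e-08 to 0.732 for Mmp10 and 1.25e-09 to 0.748 for Mmp13).

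Mmp3, stromelysin-1, was not called. It had 0 and 30 fragments in the libraries labelled High, against 108 and 190 in those labelled Low, so that both libraries labelled High lay lower but far from each other (adjusted p = 0.282 by edgeR, range over the alternatives 4.1e-14 to 0.878). Mmp3 and Mmp10 are close copies of each other, and how the counting split shared reads between them is not given. A pair of further genes of the block had a few fragments. Mmp12, the macrophage elastase, had 0 and 1 in the libraries labelled High and 6 and 7 in those labelled Low. Mmp1b, related to interstitial collagenase, had 0 and 2 in the libraries labelled High and 2 and 14 in those labelled Low. Too few for the filter, neither was tested. The other 5 genes of the block (Mmp1a, Mmp8, Mmp27, Mmp20 and Mmp7) had no fragments in any library. Among the AP-1 and Ets factors, which are known to bind such promoters, 1 of 11 fell, 0 rose and 10 were not called. Ets1 was at 13.8 and 12.6 FPKM in the libraries labelled High, against 35.3 and 38.7 FPKM in those labelled Low (2.77-fold lower, adjusted p = 0.0189 by edgeR). Jun was at 23.3 and 19.7 FPKM in the libraries labelled High and 27.6 and 23.7 FPKM in those labelled Low (adjusted p = 0.619). Fosl1 was at 2.68 and 8.42 FPKM in the libraries labelled High and 6.60 and 4.37 FPKM in those labelled Low (adjusted p = 0.983). Over the 11 factors, 7 log2 fold changes were above 0 and 4 below. Fos ran higher, at 5.47 and 2.85 FPKM for the High label against 1.89 and 1.52 FPKM for Low (adjusted p = 0.238 by edgeR). So did Ets2, at 76.9 and 59.7 FPKM against 43.3 and 42.2 FPKM (adjusted p = 0.182 by edgeR). Any part of these factors in the falls of the block was not tested.

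Of the membrane-type metalloproteinases edgeR called none, and DESeq2 called Mmp15 and Mmp24 higher. Mmp14, the membrane-anchored collagenase that activates the precursor of MMP2, was at 179 and 118 FPKM in the libraries labelled High and 133 and 111 FPKM in those labelled Low. The groups overlapped (adjusted p = 0.612 by edgeR). Mmp15, a second membrane-type enzyme, was at 11.6 and 3.98 FPKM in the libraries labelled High, against 1.79 and 1.10 FPKM in those labelled Low. Both were above both, 5.45-fold on average, with adjusted p = 0.111 by edgeR and 7.32e-04 by DESeq2. Mmp24, a membrane-type enzyme best known from neural tissue, was at 2.46 and 9.31 FPKM in the libraries labelled High, against 0.320 and 0.354 FPKM in those labelled Low. Its log2 fold change of 4.12 ± 0.72 (SE) was the highest among the 45 and just missed the threshold (adjusted p = 0.0543 by edgeR, 7.37e-08 by DESeq2, range over the alternatives 1.7e-33 to 0.758). Of the exonic bases of Mmp24, 13.6% are shared with BC029722 on the opposite strand, which was at 28.4 and 32.9 FPKM in the libraries labelled High and 31.4 and 19.5 FPKM in those labelled Low. The library kit keeps strand, but the strand setting of the counting is not given, so reads of such pairs may not have been told apart.

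Mmp28, epilysin, which is expressed in epithelia, was at 5.29 and 3.32 FPKM in the libraries labelled High and 1.59 and 1.002 FPKM in those labelled Low (adjusted p = 0.127 by edgeR, 0.0336 by DESeq2). Mmp17, anchored to the membrane by a lipid, ran lower at 0.315 and 0.379 FPKM in the libraries labelled High, against 1.04 and 0.796 FPKM in those labelled Low (adjusted p = 0.298). Mmp2, gelatinase A, separated the libraries labelled High from each other, at 4.66 and 0.779 FPKM, against 7.69 and 4.59 FPKM in those labelled Low. The groups overlapped, and the log2 fold change of Mmp2 was -2.95 without High library 1 and -0.38 without High library 2. Mmp11, stromelysin-3, known mainly from stroma, was at 12.2 and 6.35 FPKM in the libraries labelled High and 7.57 and 7.21 FPKM in those labelled Low. Mmp16 stayed between 0.885 and 1.34 FPKM in all libraries. Mmp19 was at 1.85 and 0.222 FPKM in the libraries labelled High and 1.84 and 2.39 FPKM in those labelled Low, again split within the High label. It shares 22.3% of its exonic bases with Tmem198b on the opposite strand. Tmem198b was at 6.39 and 5.03 FPKM in the libraries labelled High and 10.5 and 11.5 FPKM in those labelled Low.

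Among the ADAMTS genes, 2 of the 3 procollagen N-proteinases and an aggrecanase fell. Adamts2, which removes the amino-terminal propeptide of fibrillar procollagens, was at 12.98 and 12.6 FPKM in the libraries labelled High, against 39.5 and 32.4 FPKM in those labelled Low (2.79-fold lower, log2 fold change -1.48 ± 0.22 SE, adjusted p = 0.0207 by edgeR). Adamts14, its close relative with the same activity, was at 1.18 and 1.55 FPKM in the libraries labelled High, against 9.05 and 7.16 FPKM in those labelled Low (5.89-fold lower, adjusted p = 0.00908). Adamts3, the other enzyme of this group, did not exceed 0.236 FPKM and was not called (adjusted p = 0.676). Adamts4, aggrecanase-1, which cuts aggrecan and versican, was at 0.348 and 0.336 FPKM in the libraries labelled High, against 7.78 and 6.76 FPKM in those labelled Low. Its fall was 21.02-fold (log2 fold change -4.39 ± 0.37 SE, adjusted p = 0.0021). For all 3 called ADAMTS genes the libraries labelled High lay close to each other and well below both libraries labelled Low.

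Of the other 9 expressed ADAMTS genes edgeR called 0, and DESeq2 called Adamts1, Adamts7 and Adamts10 lower. In 6 of the 9 both libraries labelled High were below both labelled Low, which was the case for 25.4% of all genes at 1 FPKM or more. Adamts1, a versican-cutting enzyme, was at 7.53 and 6.33 FPKM in the libraries labelled High, against 13.6 and 14.1 FPKM in those labelled Low (adjusted p = 0.079 by edgeR, 0.0051 by DESeq2). Adamts7, which cuts cartilage oligomeric matrix protein, was at 1.10 and 1.09 FPKM in the libraries labelled High, against 4.58 and 3.003 FPKM in those labelled Low (adjusted p = 0.0512 by edgeR, 6.95e-04 by DESeq2). Adamts10, a partner of fibrillin microfibrils, was at 1.59 and 2.25 FPKM in the libraries labelled High and 5.14 and 4.01 FPKM in those labelled Low (adjusted p = 0.128 by edgeR, 0.0343 by DESeq2). Adamts12, a relative of Adamts7, was at 0.401 and 0.0333 FPKM in the libraries labelled High, against 1.08 and 1.12 FPKM in those labelled Low. Adamts16 was at 1.45 and 0.404 FPKM in the libraries labelled High, against 1.51 and 1.74 FPKM in those labelled Low. Adamts6 was at 4.83 and 1.17 FPKM in the libraries labelled High, against 6.60 and 8.99 FPKM in those labelled Low (adjusted p = 0.407). Adamts5, aggrecanase-2, did not separate the groups, at 2.24 and 0.458 FPKM in the libraries labelled High and 2.13 and 2.45 FPKM in those labelled Low, and neither did Adamts9, at 1.47 and 0.310 FPKM in the libraries labelled High and 0.538 and 0.816 FPKM in those labelled Low. Adamts8 alone ran the other way in both libraries, at 0.839 and 3.33 FPKM in those labelled High against 0.617 and 0.689 FPKM in those labelled Low (adjusted p = 0.267). Summed over the family, ADAMTS levels were 36.4 and 30.9 FPKM in the libraries labelled High, against 92.6 and 83.8 FPKM in those labelled Low.

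Genes that work beside these enzymes are given for comparison. Bmp1, the procollagen C-proteinase, fell to 49.8 and 44.6 FPKM in the libraries labelled High, against 218 and 181 FPKM in those labelled Low (4.19-fold, adjusted p = 0.00765 by edgeR). Among 7 tested of 11 other matrix proteases edgeR called Bmp1 alone, while DESeq2 also called Htra1 higher (adjusted p = 6.75e-05) and Mme lower (adjusted p = 0.0458). By edgeR the list of ADAMTS-like proteins and cofactors had 0 rises, 1 fall and 6 not called, and DESeq2 also called Adamtsl4 and Adamtsl5 higher and Papln lower. The fall was Pcolce2, an enhancer of the C-proteinase, at 5.91 and 7.80 FPKM in the libraries labelled High against 36.3 and 36.2 FPKM in those labelled Low (5.24-fold lower, adjusted p = 0.00755 by edgeR). Among 12 matrix substrates 0 passed edgeR's test, while DESeq2 called 2 higher and 3 lower. Col1a1 was at 13.9 and 3.53 FPKM in the libraries labelled High, against 557 and 471 FPKM in those labelled Low (adjusted p = 0.0717 by edgeR, 1.42e-25 by DESeq2). Versican, Vcan, was at 5.37 and 4.33 FPKM in the libraries labelled High, against 10.5 and 17.6 FPKM in those labelled Low (adjusted p = 0.0554 by edgeR, 4.21e-04 by DESeq2). The scavenger receptor Lrp1, which clears several metalloproteinases and TIMP3 from the cell surface, was the only gene that edgeR called of 4 tested convertases and clearance genes, and DESeq2 also called Pcsk6 higher. It stood at 9.19 and 4.70 FPKM in the libraries labelled High, against 24.9 and 33.5 FPKM in those labelled Low (4.17-fold lower, adjusted p = 0.0443).

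**Figure D3:**
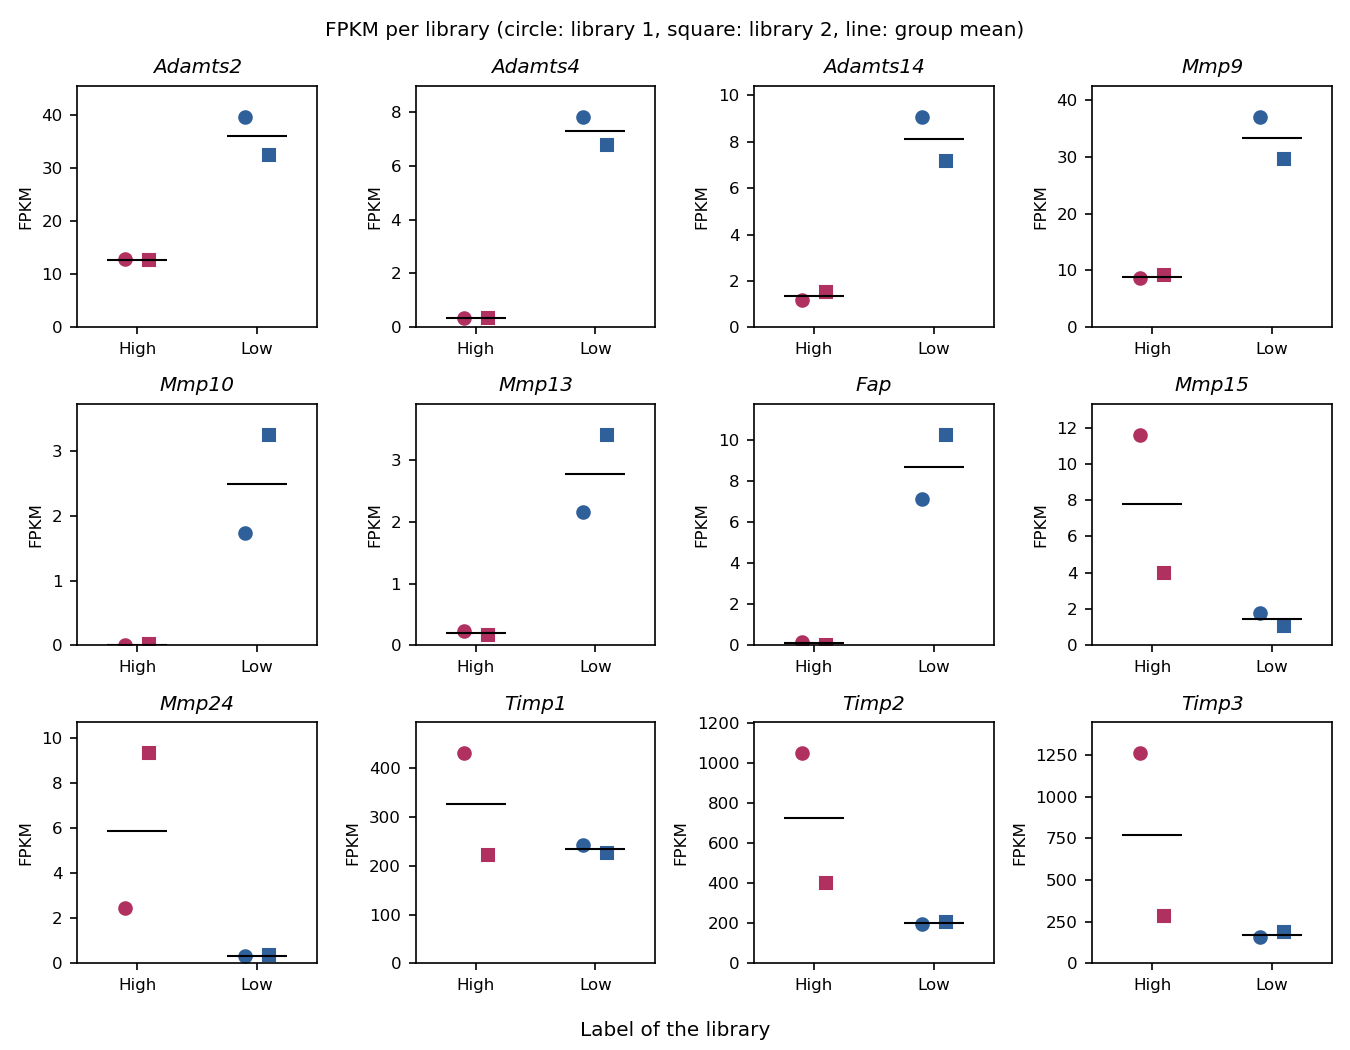
FPKM of 12 genes in each library, the libraries labelled High left of those labelled Low, each panel on its own linear axis from 0; circles are library 1, squares library 2 and lines group means. The 7 genes that fell have both High values below both Low values, as do none of the 5 others shown (Mmp15, Mmp24 and the 3 Timp genes).

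Timp1, Timp2 and Timp3 were high in every library, and edgeR called none of the inhibitors. Timp2, which inhibits most metalloproteinases and also takes part in the activation of the MMP2 precursor by MMP14, was at 1046 and 402 FPKM in the libraries labelled High, against 195 and 208 FPKM in those labelled Low. Both were above both, with a log2 fold change of 1.86 ± 0.47 (SE) and adjusted p = 0.129 by edgeR. DESeq2 called it (adjusted p = 5.61e-04). A replicate block by library number gave an adjusted p of 0.0342 and one with the numbers crossed gave 0.147, both being arbitrary pairings (range over all alternatives 7.25e-19 to 0.850). Timp3, which binds to matrix and also inhibits ADAM17 and aggrecanases, was at 1258 and 284 FPKM in the libraries labelled High, against 161 and 186 FPKM in those labelled Low (log2 fold change 2.17 ± 0.81 SE, adjusted p = 0.301). Without High library 1 that value was 0.73, and without High library 2 it was 2.87. Timp1 overlapped between the groups, at 431 and 222 FPKM in the libraries labelled High and 243 and 227 FPKM in those labelled Low (adjusted p = 0.493). Timp4 had no fragments. Of the exonic bases of Timp3, 21.3% are shared with Syn3 on the opposite strand, which did not exceed 1.18 FPKM.

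Timp2 and Timp3 together took 0.969% of all fragments in High library 1 and 0.271% in High library 2, against 0.137% and 0.151% in the libraries labelled Low. By FPKM Timp3 ranked 35th and 274th of all genes in the libraries labelled High, and 566th and 453rd in those labelled Low. The summed Timp level was 11.995 and 5.91 times the summed Mmp level in the libraries labelled High, against 2.96 and 3.64 times in those labelled Low. For Timp2 over Mmp14 alone these ratios of FPKM were 5.85 and 3.41 in the libraries labelled High, against 1.46 and 1.88 in those labelled Low. Over the same pairs of libraries Timp1 over Mmp14 gave 2.41 and 1.88 for the High label, against 1.82 and 2.05 for the Low label, so that its groups overlapped. Reck, a membrane-anchored inhibitor of several metalloproteinases, was far lower in level, at 1.65 and 0.294 FPKM in the libraries labelled High and 0.207 and 0.146 FPKM in those labelled Low (adjusted p = 0.225). Bsg, also known as CD147, a surface glycoprotein that induces metalloproteinases in neighbouring cells, was at 252 and 280 FPKM in the libraries labelled High and 346 and 294 FPKM in those labelled Low (adjusted p = 0.597).

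Fap, a membrane serine protease and marker of reactive fibroblasts, fell furthest outside the Mmp block. It was at 0.162 and 0.0322 FPKM in the libraries labelled High, against 7.14 and 10.2 FPKM in those labelled Low (adjusted p = 0.00738 by edgeR). The fragments were 7 and 2 in the libraries labelled High, against 244 and 702 in those labelled Low, a ratio of 107 (95% interval 56.1 to 235, counting error only). The summed level of the fibroblast markers, given above, was also lower, but in the libraries labelled Low most of it was Col1a1 and Col3a1. Col3a1 was at 31.1 and 0.375 FPKM in the libraries labelled High, against 365 and 340 FPKM in those labelled Low. The other fibroblast markers did not move together. Pdgfra overlapped between the groups, at 36.3 and 4.12 FPKM in the libraries labelled High and 12.4 and 15.2 FPKM in those labelled Low. Acta2, the smooth muscle actin of myoepithelium and myofibroblasts, fell to 9.45 and 3.59 FPKM in the libraries labelled High, against 553 and 483 FPKM in those labelled Low (adjusted p = 0.00976). Pdgfrb was at 80.3 and 19.1 FPKM in the libraries labelled High, against 138 and 133 FPKM in those labelled Low, while Dcn was at 118 and 11.5 FPKM in the libraries labelled High and 2.48 and 3.40 FPKM in those labelled Low. Their part in the falls of Fap and of the other genes was not tested. Of the plasminogen system, which activates several Mmp precursors, 2 of 6 tested genes fell and 1 rose by edgeR. The activators Plau, at 26.3 and 34.1 FPKM in the libraries labelled High against 102 and 108 FPKM in those labelled Low, and Plat fell (adjusted p of 0.0122 for Plau and 0.022 for Plat by edgeR). The inhibitor Serpinb2 rose (58.4-fold, adjusted p = 0.0021). Plg itself had no fragments.

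Among the ADAM genes 0 of 11 tested genes were called by edgeR, with 1 at an unadjusted p under 0.05 and 0 called by DESeq2. Adam10, which sheds Notch receptors, cadherins and CD44, was at 61.3 and 59.9 FPKM in the libraries labelled High and 41.7 and 52.8 FPKM in those labelled Low (log2 fold change 0.37 ± 0.23 SE, adjusted p = 0.445). Adam17, the sheddase of TNF and several EGF receptor ligands, was at 17.3 and 23.1 FPKM in the libraries labelled High and 11.97 and 14.4 FPKM in those labelled Low. Its log2 fold change of 0.63 ± 0.25 (SE) had an unadjusted p of 0.0369 and an adjusted p of 0.245. Adam9, also a membrane sheddase, was at 69.3 and 28.4 FPKM in the libraries labelled High and 29.1 and 35.5 FPKM in those labelled Low, with only High library 1 apart. Adam12, known from mesenchymal and tumour cells, was at 12.8 and 23.1 FPKM in the libraries labelled High and 20.4 and 27.2 FPKM in those labelled Low. Adam15 ran from 8.10 to 13.2 FPKM over all libraries. Adam1a ran from 0.943 to 1.20 FPKM, but 24.04% of its exonic bases are shared with Mapkapk5 on the same strand, so its count is uncertain.

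Adam8 and Adam19 were each set by a single library. Adam8, best known from leukocytes, was at 0.914 and 8.49 FPKM in the libraries labelled High and 0.825 and 0.898 FPKM in those labelled Low. Adam19 was at 1.85 and 0.123 FPKM in the libraries labelled High and 1.46 and 1.23 FPKM in those labelled Low. The partners of ADAM10 and ADAM17, tetraspanins of the TspanC8 type and iRhom proteins, gave 0 calls by edgeR among 8 tested and 1 by DESeq2, Tspan15. Tspan15, which directs ADAM10 to N-cadherin, was at 4.31 and 6.81 FPKM in the libraries labelled High, against 1.78 and 1.90 FPKM in those labelled Low (adjusted p = 0.0717 by edgeR, 0.00437 by DESeq2). Among 13 tested shed substrates, 1 rose and 2 fell by edgeR, and DESeq2 called 4 higher and 2 lower. The EGF receptor ligand Areg, an ADAM17 substrate, was at 24.4 and 37.95 FPKM in the libraries labelled High, against 8.71 and 9.14 FPKM in those labelled Low (3.52-fold higher, adjusted p = 0.0351). The adhesion molecules Alcam and L1cam fell, Alcam to 1.34 and 1.38 FPKM in the libraries labelled High against 8.92 and 10.96 FPKM in those labelled Low (7.25-fold, adjusted p = 0.00443).

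The libraries labelled High also differed from each other, in these genes and in others. Between those libraries 8 of the 39 expressed members differed by 4-fold or more in FPKM + 0.1, 20.5% of them against 5.78% of all genes at 1 FPKM or more, whereas between the libraries labelled Low 0 did and the largest difference was 1.82-fold. The 8 were Timp3, Reck, Mmp2, Mmp19, Adam19 and Adamts5, higher in High library 1, and Mmp3 and Adam8, higher in High library 2. Such splits were not particular to the members. Among the matrix substrates, FPKM was 82.9-fold higher in High library 1 for Col3a1, 22.3-fold for Bgn and 10.2-fold for Dcn. Col1a2 was 20.9-fold higher in High library 2, while Vcan and Col4a1 differed by 1.24-fold and 1.71-fold. Summed fibroblast markers were also higher in High library 1, at 279 FPKM against 38.6 FPKM in High library 2, and summed luminal markers were lower, at 429 against 1294 FPKM. Their part in the split was not tested. With a single library per clone, clone and library cannot be told apart and the split has no test.

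**Figure D4:**
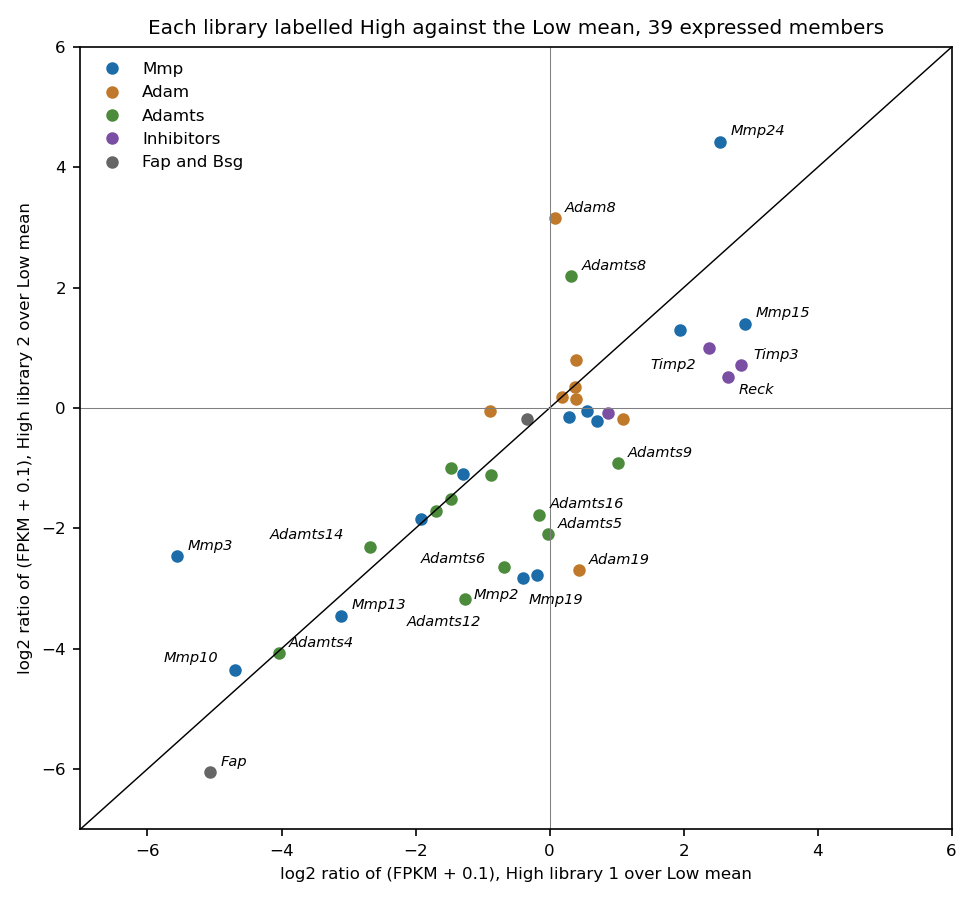
Log2 ratio of FPKM + 0.1 to the mean of the libraries labelled Low, for High library 1 (x axis) and High library 2 (y axis), 1 point per expressed gene, coloured by family; the diagonal marks equal ratios. Fap, Mmp10, Mmp13, Adamts4 and Adamts14 lie near the diagonal at the lower left, while Timp3, Reck, Mmp2, Mmp19, Adam19 and Adamts5 lie below it and Adam8, Mmp3 and Mmp24 above it.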

How the data were processed

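RNA sequencing of 4 libraries was analysed. Per the labels' protocols, 500 ng of total RNA entered a strand-keeping Illumina kit for each. The build was mm10 and the tools named were TopHat2 2.0.13, cutadapt 1.5 and Cuffdiff 2.2.1, per the submitters' processing notes. Annotation and strand setting were not given in the sources used here. For every gene in each library, the authors deposited an estimated count of fragments and an FPKM that they scaled by library, per the file headers. Of the estimated counts 99.18% were whole within 1e-06, and all were rounded before testing. None of the 82 genes carried a failed status (0 of them).

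Levels are the deposited FPKM. Differences were tested on the counts with edgeR 4.0.16 (R 4.3.3; quasi-likelihood, TMM, robust, filter with a minimum count of 10), two-sided, and the SE is the log2 fold change over the root of F. DESeq2 1.42.0, limma 3.58.1 on log2(FPKM + 1) and log2(FPKM + 0.1), relative log expression factors, no filter, a replicate block and leaving out each library were alternatives. The fit was tested on simulated data. These had the same spread in both groups, unlike the High and Low pairs here, so they cannot vouch for the fit under unequal spread. The Low duplicates differed beyond sampling noise (chi-square per degree of freedom 32.4) and were kept apart. The labels give no pairing by library number. Same-numbered libraries deviated with r = -0.14 over 12987 genes. Swapping the numbers within a group would only turn its sign, so r cannot decide whether libraries were paired. Coordinates and exons are those of GENCODE M21 (mm10), and promoters those of RefSeq (GRCm38.p6). Intervals cover counting error only.

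Full values were given by rule to members called, with a log2 fold change of 2 or more in size, with High libraries 4-fold apart, with 1 of the 3 highest levels in a family, or on a short fixed list; other expressed members are given more briefly. The genes and lists were chosen with earlier results of these data known. Protein sequences were not used here. There were 0 columns of values without a sample.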

Additional observations from a re-analysis of the deposited data

How the results depend on the processing

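The 7 falls among the genes described were also called with relative log expression size factors (7 calls), without a filter (10 calls, adding Adamts1, Adamts7 and Mmp24) and with DESeq2 (15 calls). Limma called 6 with either pseudocount, without Mmp10 and Mmp13, adding Mmp3 on log2(FPKM + 1) and Mmp24 on log2(FPKM + 0.1). Leaving out a library gave 0 to 28 calls. The cause of these differences was not tested. Over all genes, 321 were called, with 814 without a filter, 1136 by DESeq2, 291 and 269 by limma and 0 to 2475 with a library left out. With the replicate number as a block there were 469 calls over all genes and 10 among the members (adding Mmp15, Mmp24 and Timp2), but the numbers pair nothing in the design. With the numbers crossed, an alternative chosen after seeing the data, there were 94 and 4 calls.

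With a library left out, 5 log2 fold changes changed sign, none of them called with all 4 libraries: Adam19 ran from -3.42 to 0.47, Adam9 from -0.17 to 1.10, Mmp11 from -0.21 to 0.73, Mmp14 from -0.0354 to 0.56 and Timp1 from -0.0678 to 0.88. The other 24 tested genes given in full kept their direction under all 11 alternatives. Setting the limit for expression at 0.5 or 2 FPKM gave 41 or 31 genes. Depth limits Mmp10, Mmp13 and Fap, which had 20 fragments or fewer over both libraries labelled High.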
